A study of Homo sapiens with 26 samples.

Results

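In T47D cells given estradiol for 45 min, estrogen receptor (ER) and progesterone receptor (PR) were called at almost separate sets of places. The ER list held 4014 sites and the PR list 7961, together 11975 of the 87206 sites in the 10 lists of the series. They were taken as all rows of the 2 estradiol lists and sorted by overlap of 1 bp or more into ER-only, PR-only and shared sites. By this rule 3919 ER sites were ER-only, 7861 PR sites were PR-only, and 95 ER sites shared 100 overlapping pairs with 100 PR sites.

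The assay was ChIP-seq (chromatin immunoprecipitation with sequencing), in which DNA fragments pulled down with an antibody to a protein are sequenced and pile up as sites where the protein sat. T47D, a long-established breast cancer cell line, has both receptors (ER+/PR+). Cells were kept without steroids for 48 h and then given 10 nM estradiol (E2, the main natural estrogen) and no progestin. The other lists used here came from T47D cells given 10 nM of the synthetic progestin R5020 or both hormones, for the same time, with the same ER or PR antibody, from a sequential pulldown of ER and then PR with both hormones (reChIP), and from PR-deficient T47D cells with the ER antibody after each of those treatments. The sources used here do not say how the PR deficiency was made. Vehicle libraries had been subtracted from every list. Each group is 1 library of 1 cell line, which leaves no replicate error and allows no test between conditions. The exact 95% intervals below cover counting over sites only. The lists hold no expression values, so the label of the line was not checked against marker genes.

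ER and PR are nuclear receptors, transcription factors that bind DNA and gain activity when their steroid is bound. ER recognises estrogen response elements, whereas PR recognises a different element that the glucocorticoid and androgen receptors also use. The PR gene is itself a classical target of ER in breast cells, which is why PR is read in the clinic as a sign of a working ER. Under estradiol alone PR has no added ligand of its own.

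The 2 lists differed in shape before any comparison of place. ER sites were wide, with a median of 1171 bp (quartiles 954 and 1576 bp), and covered 5.43 Mb. PR sites were narrow, with a median of 249 bp (quartiles 205 and 333 bp), and covered 2.23 Mb although the list was longer. The score of a site is the authors' own value, of unstated unit, and was used only to order sites within a list. PR scores took 14 distinct values between 21.85 and 53.41, and 4660 PR sites (58.5%) stood at the lowest of them. ER scores took 269 values between 15.12 and 209.37, with 222 sites (5.53%) at the lowest. Most of the PR list thus stood at its lowest score, and most of the ER list did not. The usual step between the lowest scores was 2.43 for PR and 0.580 for ER, so these 2 shares depend also on how coarse the scores are. Read depth is unknown.

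Few sites were called for both receptors. Of the ER sites, 95 of 4014 (2.37%, 1.92 to 2.89) overlapped a PR site, where 3.63% of the sites in the 8 other lists of the series, 2 of them PR lists, did so. Of the PR sites, 100 of 7961 (1.26%, 1.02 to 1.53) overlapped an ER site, against 8.5% of the sites in the 8 other lists, 5 of them ER lists. Taken singly, the 8 other lists met PR sites of estradiol at shares from 1.62% (ER with both hormones) to 8.41% (PR with both hormones), 2 of them below the 2.37% of the ER list. They met ER sites of estradiol at shares from 1.07% (PR-deficient cells with R5020) to 29% (PR-deficient cells with estradiol), 1 of them below the 1.26% of the PR list. PR with R5020, a list of the same receptor, met PR sites of estradiol at 2.77% (2.38 to 3.2). This interval overlaps that of the ER list, but those PR sites were far narrower, with a median of 149 bp. Per length of called DNA they held 173 PR sites of estradiol per Mb, against 18.4 for the ER list, the lowest of all lists. Both measures depend on site width, so the 2 shares are not directly comparable. The ER list closest in kind came from PR-deficient cells given estradiol, with sites of similar width (median 1076 bp). Of its 7742 sites, 262 (3.38%, 2.99 to 3.81) overlapped a T47D PR site of estradiol. Per length of called DNA, T47D ER sites held 18.4 PR sites per Mb and the ER sites of PR-deficient cells 27.3. These 2 ER lists differ in length (4014 and 7742 sites) and in the lowest score they hold (15.12 and 25.80), and with 1 library each the values were not tested against each other.

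Shared pairs were small PR sites inside large ER sites. In 93 of the 100 pairs the PR site lay wholly inside the ER site, and in 5 its centre lay outside. The overlap ran from 23 to 833 bp with a median of 244 bp, and 1 pair had lengths within 2-fold of each other. The centres were 8 to 1896 bp apart, with a median of 386 bp, and 30 pairs had centres within 200 bp. With the way from the ER centre to the edge divided into 3 equal parts, 38 PR centres lay in the inner part, 43 in the middle and 14 in the outer. Of the ER sites, 90 held 1 PR site and 5 held a pair of them. At the edge of the rule, the smallest overlap was 23 bp, at chr1:150978735-150979701, and the smallest gap without overlap left 1 bp between an ER site at chr16:46935908-46936934 and a PR site at chr16:46935599-46935906. Beyond the shared sites, 22 ER sites (0.548%) had at most 500 bp between their edge and that of a PR site, and 51 (1.27%) had at most 1000 bp.

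ER sites that met a PR site were more frequent among wide sites. Split into quintiles by score, 2.12% (1.24 to 3.37) of the highest-scoring ER sites and 2.87% (1.83 to 4.27) of the lowest-scoring were shared. Split by width, 6.23% (4.66 to 8.13) of the widest quintile and 0.623% (0.203 to 1.45) of the narrowest were shared, so that 50 of the 95 shared ER sites came from the widest. A wider site has more room for an overlap. From the widest to the narrowest quintile, ER sites held 28.4, 13.5, 15.9, 12.6 and 9.5 PR sites per Mb, the last value from 6 PR sites. Shared ER sites had a median width of 1764 bp against 1165 bp for ER-only sites, and a median score of 22.10 against 24.43. Shared PR sites had a median width of 248 bp and PR-only sites 249 bp, and both classes had a median score of 21.85, the lowest called. By PR score, 1.16% (0.872 to 1.51) of the 4660 PR sites at the lowest value were shared and 1.06% (0.129 to 3.79) of the 188 sites at 31.56 or more. Between them, the share was 1.44% (0.974 to 2.05) at a score of 24.28, 0.784% (0.288 to 1.7) at 26.70 and 3.01% (1.31 to 5.84, 8 of 266) at 29.13.

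The same ER sites gave another picture against the PR list of both hormones. There 26% (23 to 29.2) of the highest-scoring ER quintile lay at a PR site, against 9.73% (7.76 to 12) of the lowest, and 9.93% of the sites in the 9 other lists did so. Against the PR list of R5020 the shares were 5.11% (3.69 to 6.86) and 3.62% (2.43 to 5.15), with 3.13% over the 9 other lists. The order by ER score was thus seen with the PR list of both hormones and not with that of estradiol.

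**Figure D1:**
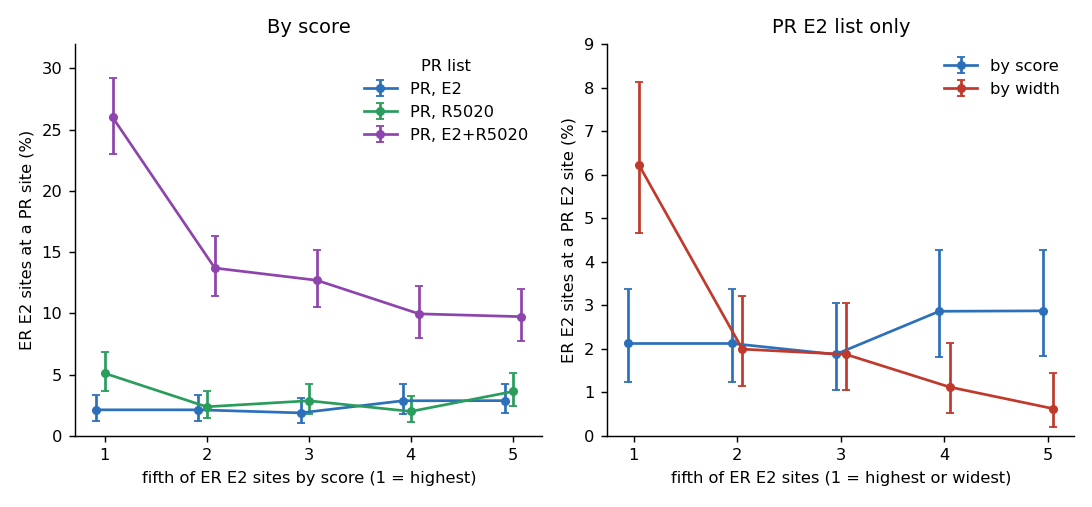
Left: share of ER sites with estradiol (y axis, %) that overlap a PR site, by quintile of ER score (x axis, 1 is the highest), for the 3 PR lists; right: the same for the PR list of estradiol, with quintiles by score or by width. Bars are exact 95% intervals over sites. The share at PR sites of both hormones runs from 26% to 9.73% with score. That at PR sites of estradiol runs with width, from 6.23% to 0.623%. The other PR lists are shown by score only.

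The shared pairs with the highest ER scores were as follows. The first was at chr1:202100791-202103257, an ER site with a score of 186.11 (rank 17 of the list) around a PR site of 821 bp at the lowest PR score, with centres 42 bp apart. Both sites of this pair were met again in 6 other lists, the ER and PR lists of both hormones, the ER list of R5020, the reChIP list and the E2 and E2+R5020 lists of PR-deficient cells, which is the highest number among the pairs. The second was at chr17:29981400-29983766, with an ER score of 164.01 and a PR site of 746 bp, again at the lowest PR score. It recurred in 5 T47D lists, both other PR lists among them, and in no list of PR-deficient cells. The third was at chr11:120507083-120510722, an ER site of 3640 bp and score 146.56. The ER site recurred in 6 lists, but its PR site of 220 bp lay 618 bp from the ER centre and met no other list. Overlap with a wide ER site therefore did not mean that the same stretch was called again elsewhere. The next were chr17:43199747-43202773, where the PR site of 833 bp recurred in the ER list of both hormones, the reChIP list and the E2 and E2+R5020 lists of PR-deficient cells but in no other PR list, and chr5:96397403-96398469, where the PR site of 142 bp recurred in PR-deficient cells alone, with E2 and with E2+R5020.

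The pairs with the highest PR scores were others. They were led by chr21:9655009-9655332 (PR score 36.41, rank 32), less than 2 Mb from a stretch of over 3 Mb in which no list had a site, and by chr4:32175-32353 (33.99, rank 57), whose centre was 11 bp from that of its ER site. Both ER sites were weak, at ranks 3397 and 2694. The next, ordered by ER score among the 8 pairs with a PR score of 29.13, were PR sites at chr17:75280136-75280399, chr20:56154124-56154517 and chr15:21216781-21216979, none of which met another list. The closest centres, 8 bp apart, belonged to chr12:102928377-102929541, an ER site of score 30.82 that met no other list. The other pairs whose sites both recurred in 5 lists were at chr14:91858841-91861462, chr5:10287751-10289403 and chr22:24655574-24657512, each in the ER and PR lists of both hormones, the reChIP list and the E2 and E2+R5020 lists of PR-deficient cells. Among all 100 pairs, 40 PR sites (40%) met none of the 8 other lists, a lower share than the 77.3% of PR-only sites. Of the ER sites that held a pair of PR sites, the highest-scoring was chr17:75278431-75280689 (score 55.25), followed by chr11:69955488-69960003 and chr1:150978735-150979701. Of the 100 pairs, 5 lay within 2 Mb of a long stretch without sites, among them the 2 on chromosome Y. Over the whole lists, 3935 of 4014 ER sites and 7655 of 7961 PR sites lay outside chromosome Y and away from such stretches.

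The 3 highest-scoring sites of either list were not shared, as was true of 97.6% of all ER sites and 98.7% of all PR sites. The ER-only sites of highest score were chr19:34369141-34371898 (209.37), chr14:50458957-50461071 (207.05) and chr13:114535844-114537915 (205.88). Their nearest PR sites were 107, 9.4 and 455 kb away. All 3 recurred in the ER and reChIP lists of both hormones and in the E2 and E2+R5020 lists of PR-deficient cells, and the sites on chromosomes 14 and 13 also in the PR list of both hormones. The PR-only sites of highest score were chr12:112178208-112178432 and chr19:44960883-44961086 (53.41 each) and chr8:86778815-86779190 (50.98), with the nearest ER site 337, 261 and 8.17 kb away. All 3 recurred in the PR list of both hormones and none in the PR list of R5020. The site on chromosome 12 was also in the ER list of both hormones. That on chromosome 19 was also in the ER list of PR-deficient cells given R5020.

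ER and PR sites lay far apart along the chromosomes. From an ER site to the nearest PR site, centre to centre, the median was 119 kb (exact 95% interval 111 to 126 kb), with quartiles of 28.5 and 379 kb. From a PR site to the nearest ER site it was 183 kb (176 to 190 kb), with quartiles of 58.7 and 481 kb. Within 10 kb lay 496 of the 4014 ER sites (12.4%) and 545 of the 7961 PR sites (6.85%), where 23.5% of the sites in the 8 other lists had a PR site of estradiol and 14.5% an ER site of estradiol that near. Sites of the same receptor were nearer: the median was 56.2 kb (52.2 to 61.7 kb) between ER sites and 30 kb (28.4 to 31.3 kb) between PR sites, a list with about 2 sites for each ER site. Read along each chromosome, the site after an ER site was an ER site in 53.6% of 4007 cases, although ER sites made up 33.5% of the 11975. The site after a PR site was a PR site in 76.6% of 7944 cases, with 66.5% PR sites in all. Each receptor's sites therefore followed sites of their own kind more often than their share of the joint list. Score did not order the distance: the median from the highest-scoring ER quintile was 124 kb (111 to 145 kb) and from the lowest 106 kb (89.5 to 119 kb).

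With R5020, ER sites lay nearer to PR sites of the same treatment, at a median of 21 kb (19.5 to 22.9 kb), than ER sites of estradiol did. With both hormones the median was 113 kb (109 to 117 kb). Set against the PR lists of other treatments, the ER sites of estradiol lay 187 kb (169 to 205 kb) from PR sites of R5020 and 44.5 kb (40.8 to 48.9 kb) from those of both hormones. Conversely, ER sites of R5020 lay 18.6 kb (17.2 to 20.3 kb) from the PR sites of estradiol, and 6.11% (5.48 to 6.78) of them overlapped one. These distances depend also on the number of sites in the list that is met, 7961, 6358 and 11908 for PR with estradiol, R5020 and both. For ER sites of R5020 the medians to the PR sites of R5020 and of estradiol had intervals that overlap.

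**Figure D2:**
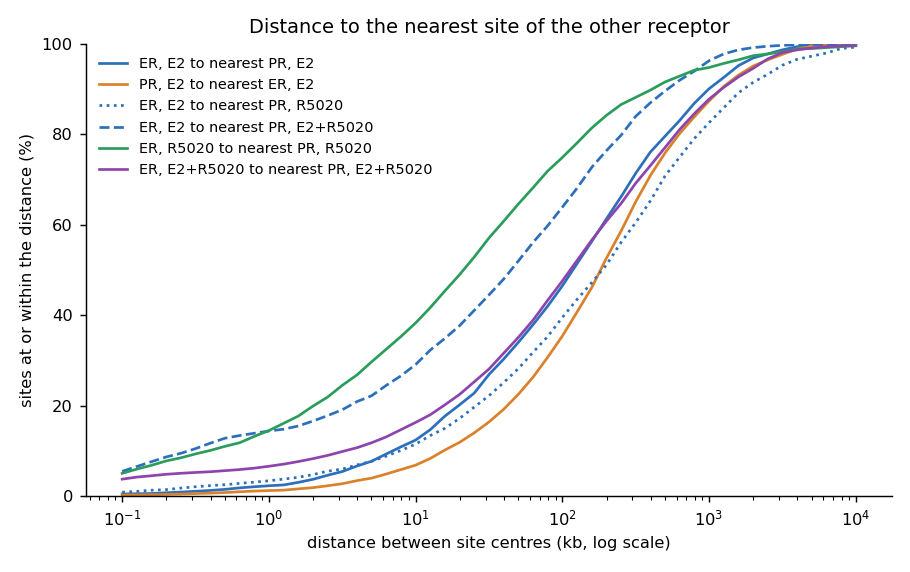
Share of sites (y axis, %) with a site of the other receptor at or within a distance (x axis, kb between centres, log scale), each line for 1 list against another. With estradiol 12.4% of ER sites and 6.85% of PR sites have the other receptor within 10 kb, and ER with R5020 has a median of 21 kb to PR with R5020.

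PR sites were nevertheless denser close to ER sites than far from them. Within 0.5 kb of an ER centre the PR density was 15.7 centres per Mb, between 0.5 and 1 kb 8.47 and between 500 and 1000 kb 4.34, so the innermost value was 3.62 times the outermost. The innermost value rests on 63 PR centres. Around the ER sites of PR-deficient cells given estradiol, the same T47D PR sites gave a ratio of 3.51, from 160 centres. Around the T47D ER sites of estradiol, PR sites of R5020 gave 8.09 (113 centres) and PR sites of both hormones 20 (533 centres). Farther out the 4 ratios were closer together, between 1.53 and 1.94 at 10 to 20 kb and between 1.18 and 1.26 at 100 to 200 kb. The PR list of estradiol thus had the lowest peak at ER centres of the 3 PR lists, near that seen around ER sites from PR-deficient cells.

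**Figure D3:**
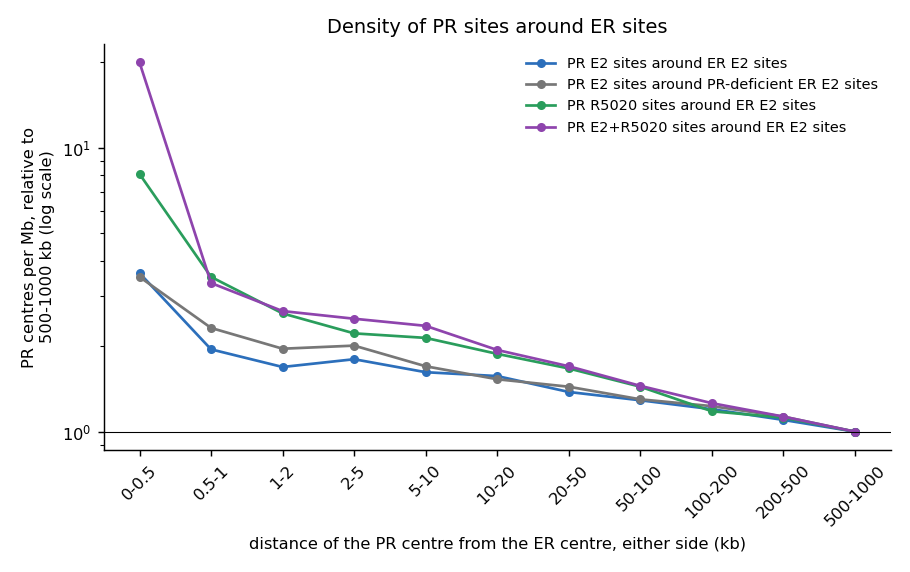
Density of PR centres (y axis, log scale, relative to that at 500 to 1000 kb) by distance from the ER centre on either side (x axis, kb). The lines are the 3 PR lists around ER sites of estradiol and the PR list of estradiol around ER sites of PR-deficient cells; the innermost values are 3.62, 8.09 and 20 for PR with E2, R5020 and both hormones, and 3.51 for the PR-deficient cells.

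Both receptors had sites on all 24 chromosomes, but in different proportions. PR sites were most frequent on chromosomes 3, 11, 8 and 12, which held 3046 of them (38.3%) but 758 ER sites (18.9%). ER sites were most frequent on chromosomes 1 (452), 2 (284) and 3 (242), followed by chromosomes 10, 17 and 19 with 231 each. Among the autosomes and X, the number of PR sites per ER site ran from 0.388 on chromosome 22 (160 ER and 62 PR sites) to 4.23 on chromosome 11 (216 ER and 913 PR sites). Chromosome 1 held 452 ER and 319 PR sites, and chromosome 3 held 242 and 955. Chromosome 19 had 231 ER and 121 PR sites, and chromosome 8 had 154 and 611. Chromosome Y, with 5 ER sites, had 28 PR sites.

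Shared sites followed neither list. Chromosome 16 had the most, 11 of its 167 ER sites (6.59%), followed by chromosome 1 with 8 of 452 (1.77%). Chromosomes 3 and 12 had 7 each, of 242 (2.89%) and of 146 (4.79%). Chromosome 2 had 1 of 284 (0.352%), and chromosomes 13, 18 and X, with 74, 64 and 73 ER sites, had none. The median distance from an ER site to a PR site also differed, from 28.7 kb on chromosome 14 to 993 kb on chromosome X, with chromosome Y at 13.6 kb. The numbers of PR sites over the 24 chromosomes were more like those of the other PR lists (Pearson r 0.966 with R5020 and 0.966 with both hormones) and of ER with R5020 (0.928) than like those of ER with estradiol (0.374, Spearman rho 0.532). For PR numbers the remaining lists lay between, from 0.57 (ER in PR-deficient cells given estradiol) to 0.739 (ER in those cells given R5020, Spearman rho 0.841). ER numbers of estradiol were most like those of ER with estradiol in PR-deficient cells (0.908). Each value compares single libraries of T47D or PR-deficient T47D cells, and all lists share the lengths of the chromosomes.

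**Figure D4:**
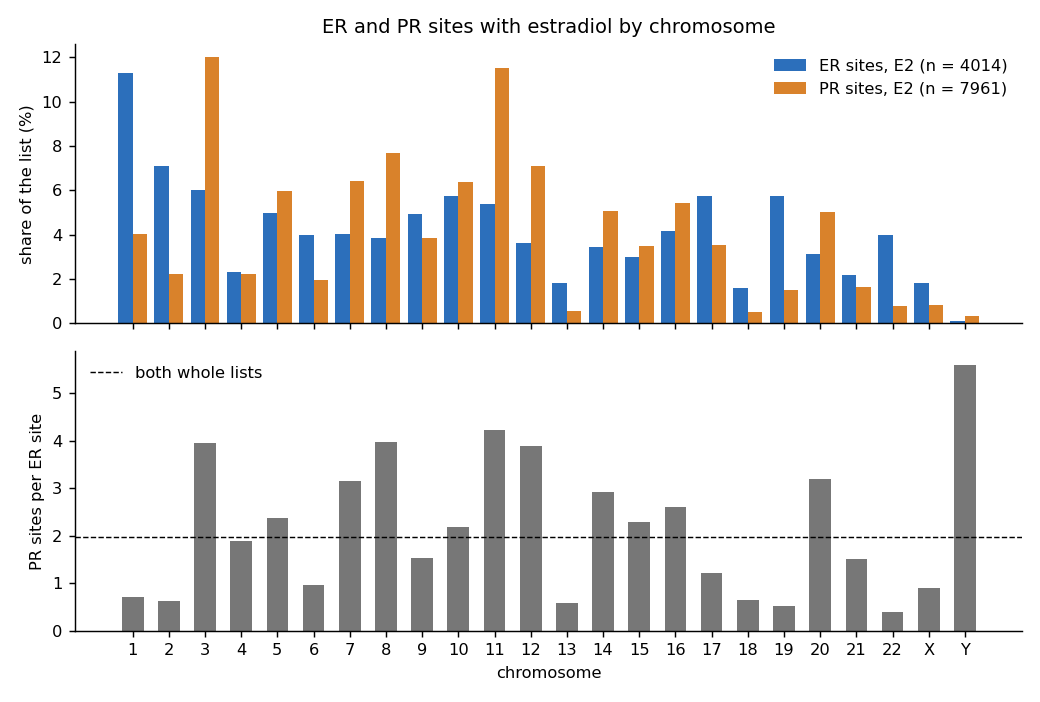
Top: share of the ER list and of the PR list of estradiol (y axis, %) on each chromosome (x axis); bottom: PR sites per ER site, with the value of both whole lists as a dashed line. PR sites gather on chromosomes 3, 11, 8 and 12, and the ratio runs from 0.388 on chromosome 22 to 4.23 on chromosome 11, apart from chromosome Y with 5 ER sites.

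The classes were then looked up in the 8 other lists, which the classes did not use. ER-only sites recurred far more than PR-only sites. Of the 3919 ER-only sites, 2659 (67.8%) met at least 1 other list and 1260 met none, whereas 1783 of the 7861 PR-only sites (22.7%) met at least 1 and 6078 met none. The largest part of the ER-only recurrence was in PR-deficient cells given estradiol, where 55% (53.4 to 56.6) of ER-only sites and 2.99% (2.62 to 3.39) of PR-only sites were listed, with 15.6% over the sites of the 9 other lists. PR-only sites were listed most often with PR and both hormones, 12% (11.3 to 12.8), for which the value over the 9 other lists was 9.93%. With PR and R5020 they were listed in 2.1% (1.79 to 2.44), the lowest of the 8 lists, with 3.13% over the 9 other lists. They were listed with ER and R5020 in 3.98% (3.56 to 4.44), with 5.62% over the 9 other lists. In PR-deficient cells given R5020 the value was 2.96% (2.6 to 3.36), with 6.3% over the 9 other lists. In the T47D list of the same receptor with both hormones, 19.3% (18.1 to 20.6) of ER-only and 12% (11.3 to 12.8) of PR-only sites were listed. With R5020 these were 6.07% (5.35 to 6.87) and 2.1% (1.79 to 2.44). The wide sites of the ER list have more room for an overlap than the narrow PR sites. The lists of 1 line and antibody also share a subtracted vehicle library.

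Shared ER sites were met at a higher share than ER-only sites in the 2 other PR lists. In the PR list of both hormones they were at 43.2% (33 to 53.7, 41 of 95) against 13.7% (12.7 to 14.8), and in that of R5020 at 11.6% (5.92 to 19.8) against 2.99% (2.48 to 3.57). They were also wider. Within the widest quintile of ER sites the values were 36% (22.9 to 50.8, 18 of 50) against 23.5% (20.5 to 26.7) with both hormones, intervals that overlap, and 18% (8.58 to 31.4) against 6.51% (4.85 to 8.51) with R5020. The R5020 intervals overlapped with the lowest score raised by 1 step, at 7.5% (1.57 to 20.4, 3 of 40) against 2.85% (2.34 to 3.44). They also overlapped with sharing defined by centres within 200 bp, at 3.33% (0.0844 to 17.2, 1 of 30) against 1.43% (1.09 to 1.85). In the T47D ER list of R5020, shared ER sites were at 17.9% (10.8 to 27.1) and ER-only sites at 6.07% (5.35 to 6.87), with 5.62% over the 9 other lists, and in that of both hormones at 26.3% (17.8 to 36.4) and 19.3% (18.1 to 20.6), with 11%. Within the widest quintile these were 14% (5.82 to 26.7) and 9.96% (7.92 to 12.3) with R5020, intervals that overlap, and 30% (17.9 to 44.6) and 34.1% (30.7 to 37.6) with both hormones, where the order turned. In PR-deficient cells given R5020, 11.6% (5.92 to 19.8) of shared and 2.19% (1.76 to 2.7) of ER-only sites were listed (6.3% over the 9 other lists). Within the widest quintile these were 12% (4.53 to 24.3) and 3.45% (2.27 to 5.02), intervals that overlap. With the lowest score raised by 1 step they were 0% (0 of 40, up to 8.81) and 1.17% (0.853 to 1.57). In those cells with estradiol the values were 50.5% (40.1 to 60.9) and 55% (53.4 to 56.6), and with both hormones 34.7% (25.3 to 45.2) and 34.9% (33.4 to 36.4), where 13.9% of the sites of the 9 other lists did so. In the reChIP list, meant to recover DNA that carries both receptors, shared ER sites were at 17.9% (10.8 to 27.1) and ER-only sites at 16.3% (15.1 to 17.4), with 10.4% over the 9 other lists. Within the widest quintile the order turned, at 22% (11.5 to 36) and 29.9% (26.6 to 33.3). Over all sites the interval of the shared sites holds the value of the ER-only sites, so no difference in reChIP listing was detectable with 95 shared sites.

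Shared PR sites were set beside PR-only sites in the same way. They were listed with PR and both hormones in 28% (19.5 to 37.9) against 12% (11.3 to 12.8). With the lowest score raised by 1 step these were 17.1% (7.15 to 32.1, 7 of 41) and 12.4% (11.3 to 13.6), and the difference was no longer beyond the intervals. With PR and R5020 they were listed in 3% (0.623 to 8.52) against 2.1% (1.79 to 2.44). In the reChIP list they were at 12% (6.36 to 20) against 2.12% (1.82 to 2.47), but with the lowest score raised by 1 step at 7.32% (1.54 to 19.9, 3 of 41) against 2.76% (2.23 to 3.38), intervals that overlap. With at least 50% of both sites overlapping, 0 of 1 shared PR site was in the reChIP list. In PR-deficient cells with estradiol they were at 36% (26.6 to 46.2) against 2.99% (2.62 to 3.39). Shared PR sites lie at T47D ER sites, most of which are listed in those cells, so the class and that list are not independent. The reChIP comparison has the same limit, since 16.3% of ER-only sites were in the reChIP list. Seen from the other side, PR sites of estradiol that recurred with both hormones lay at an ER site in 2.87% (1.92 to 4.12, 28 of 975) and those that did not in 1.03% (0.807 to 1.3, 72 of 6986). By PR score, the share listed with PR and both hormones was 9.33% (8.51 to 10.2) of the 4660 sites at the lowest score and 45.2% (38 to 52.6) of the 188 at 31.56 or more. The higher PR scores of estradiol were thus found again with both hormones more often than the lowest.

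**Figure D5:**
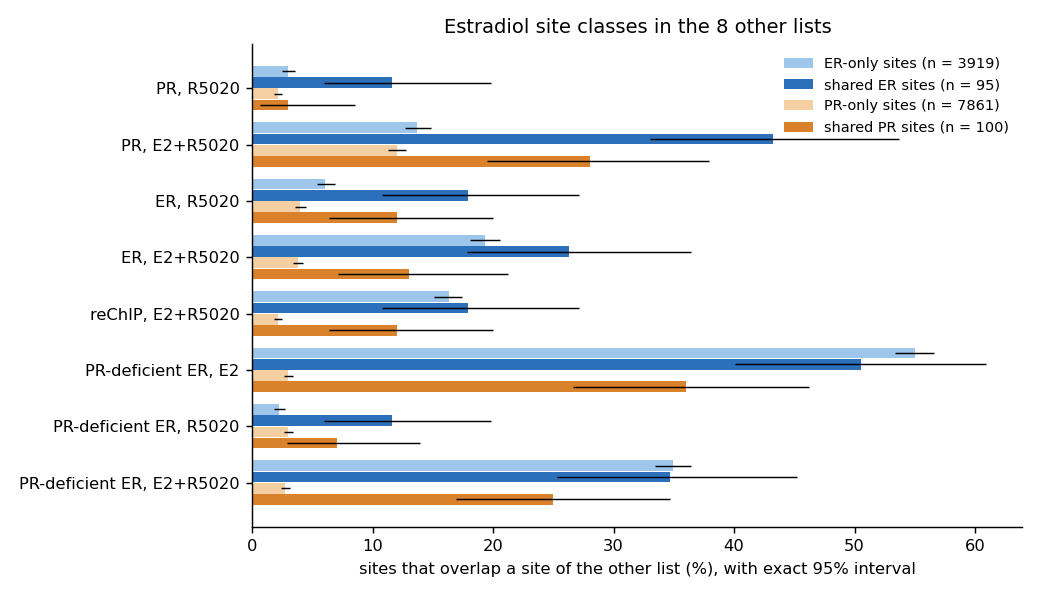
Share of ER-only, shared ER, PR-only and shared PR sites of estradiol (x axis, %) that overlap a site of each of the 8 other lists (y axis), with exact 95% intervals as bars. Shared ER sites stand above ER-only sites in the PR list of both hormones (43.2% against 13.7%) and within their interval in the reChIP list (17.9% against 16.3%).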

How the data were processed

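The authors used Bowtie2, MACS and the hg19 build, per the submitters' processing notes, which name no version or setting. Vehicle libraries (for the reChIP also IgG libraries) were subtracted by an unstated method, per the labels. Each deposited list has no header and holds chromosome, start, end, length and the authors' score per site, whose scale is not stated. Positions count from 1. Each list is 1 library (26 samples in 26 groups of 1, of which 10 had a list), and depth is unknown.

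Overlap (1 bp or more), distances between centres on the same chromosome and quintiles within a list (ties by length, then position) were computed with NumPy 2.4.6, SciPy 1.17.1 and pandas 2.3.3 under Python 3.11.15 (figures: matplotlib 3.10.9), and tested on simulated data and against bedtools 2.31.1. Intervals are exact Clopper-Pearson for shares and exact order-statistic for medians, at 95%. Sites named are those leading by score, number of PR sites, closeness or recurrence. Members and rules were chosen with earlier results of these data known, and the split within the widest ER sites was added after seeing the data. Alternatives changed the overlap rule, the lowest score, list length, site width, merging and chromosomes. Planned motif and gene searches were not run, since no hg19 sequence or annotation was used here.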

Additional observations from a re-analysis of the deposited data

How the results depend on the processing

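No paired analysis was possible because there is 1 library per group. Of 176 alternatives, 87 stayed within the interval of the reported value and 89 moved outside it. Requiring at least 50% of both sites to overlap left 0.0249% of ER and 0.0126% of PR sites shared, since 1 of the 100 pairs had lengths within 2-fold. On that 1 pair the shared share in the PR list of both hormones was 0% for ER and 100% for PR, with 2.42% for ER-only and 8.52% for PR-only sites. With centres within 200 bp, 0.747% of ER and 0.377% of PR sites were shared, as with sites set to 200 bp (0.747% and 0.377%), and the shares in the PR list of both hormones were 8.36% for ER-only, 10.9% for PR-only and 43.3% for shared PR sites. With the higher-scoring 50% of each list, 1.2% of ER and 0.628% of PR sites were shared, the median distances were 269 kb from ER and 455 kb from PR sites, and 6.98% and 3.44% lay within 10 kb. With the lowest score raised by 1 step these were 1.05% of ER sites, 300 kb and 205 kb, and 5.2% and 5.82%. Listing with PR and both hormones was then 11.4% for ER-only, 27.5% for shared ER and 17.1% (7.15 to 32.1) for shared PR sites, the last an interval that holds the 12.4% of PR-only sites. With lists of equal length, 1.32% of ER sites were shared, at 258 kb, with 6.55% within 10 kb. Without chromosomes 3, 8, 10 and 11 the ER median was 133 kb, with 10.8% within 10 kb. By construction, fewer ER or PR sites remain in these last 4 settings. Of the shares in the 7 lists other than PR with both hormones, 55 of 112 stayed within their intervals. Depth is unknown, and sites below the call are not listed.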

Other observations

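ER and PR sites of estradiol were also counted in windows of 1 Mb. Such windows are far wider than the sites, so a shared window is by construction more frequent than a shared site. ER sites lay in 1424 windows and PR sites in 1788, and the sharing of windows was not tested. Of 2158 windows with any site, 1054 (48.8%) held both receptors, 370 only ER and 734 only PR sites. PR sites were bunched: 220 windows with 10 or more held 4094 PR sites (51.4%) and 693 ER sites (17.3%). The fullest was chr3:195000001-196000000, with 85 PR sites and 2 ER sites of estradiol. There the ER list of R5020 had 92 sites, the PR list of both hormones 162 and the R5020 list of PR-deficient cells 88. The 3 neighbouring windows chr3:194000001-195000000, chr3:197000001-198000000 and chr3:196000001-197000000 held 72, 71 and 53 PR sites and 4, 5 and 3 ER sites.

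The windows richest in ER sites were others. The first was chr1:17000001-18000000 with 19 ER and 7 PR sites, followed by chr19:2000001-3000000 with 18 and 5 and chr22:39000001-40000000 with 18 and 3. In chr1:22000001-23000000, 15 ER sites stood beside no PR site of estradiol. PR-deficient cells given estradiol had 26, 18, 15 and 12 ER sites in these 4 windows.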
